A study of Caenorhabditis elegans with 6 samples.

Results

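HIF-1 peaks were sought near 10 genes of the tricarboxylic acid (TCA) cycle and its entry point, with the gene for the cytosolic malate dehydrogenase included. They were sdha-1, sdhb-1, mev-1 and sdhd-1 for succinate dehydrogenase, mdh-1 and mdh-2 for malate dehydrogenase, cts-1 for citrate synthase, aco-2 for aconitase, fum-1 for fumarase and pdhk-2 for pyruvate dehydrogenase kinase. The genes, 10 of 19973 protein-coding nuclear genes, were chosen by name with earlier results of these data known. Shares among them are therefore descriptions and do not measure enrichment. A gene was taken to have a peak if 1 was centred no more than 3000 bp from an annotated transcription start site (TSS). Chromatin of whole L4 larvae was immunoprecipitated for a HIF-1::GFP fusion protein with an anti-GFP antibody. The animals were grown at 20 °C on OP50 bacteria in room air. The egl-9 mutants, strain OR3350, carried egl-9(sa307), hif-1(ia4) and the integrated transgene odIS131[hif-1::gfp]. The control strain OR3349 carried hif-1(ia4) and the same transgene with egl-9 intact. Both strains therefore lacked endogenous hif-1 and relied on 1 integrated line of a GFP-tagged genomic fosmid. Per the study's methods both also carried unc-119(ed3), with unc-119(+) in the transgene. Each genotype had 2 ChIP libraries and 1 pooled input, 6 libraries in all. The deposited data hold 1 peak list per genotype, with 604 nuclear peaks for the egl-9 mutants and 52 for the control, so no replicate spread and no test of a difference can be given for any value here. The lists carry no read counts, and the methods of the study give depth as 1 range over the 6 libraries, so what each library contributed is not known.

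In C. elegans the transcriptional response to low oxygen depends on HIF-1. EGL-9, a prolyl hydroxylase, uses oxygen to mark HIF-1 for degradation, so HIF-1 accumulates in egl-9 mutants even in room air. HIF proteins bind DNA at hypoxia response elements (HREs) with the core ACGTG or GCGTG. The TCA cycle oxidises acetyl groups in the mitochondrial matrix, and its succinate dehydrogenase is also complex II of the electron transport chain. Pyruvate dehydrogenase kinase switches off the enzyme that feeds pyruvate into the cycle, and in mammals it is a well-known target of HIF-1.

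Peaks of egl-9 mutants lay upstream of 5 of the 10 genes, namely sdha-1, mev-1, mdh-1, aco-2 and pdhk-2, with 1 peak at each. Over all protein-coding genes, 870 of 19973 (4.36%) had a peak of egl-9 mutants within that distance. In the control strain 0 of the 10 genes had a peak, where 73 of all genes (0.365%) had one. None of the 5 peaks overlapped a control peak, against 61 of all 604 peaks of egl-9 mutants (10.1%) that did. The study places most of the 604 peaks in or near regions occupied by many other transcription factors, where ChIP-seq signals are possibly false. Whether the 5 peaks lie in such regions was not tested.

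The sequences under 4 of these peaks are shown first, because the position of the HRE core within them is what the peaks can be compared by. Each is the central window of a peak, 100 bp to each side of its centre on WBcel235, read 5′ to 3′ on the strand of the named gene, with the HRE core in capitals (ACGTG or GCGTG, or CACGT or CACGC where the core lies on the opposite strand). The windows are X:8546100-8546300 for sdha-1, III:10334063-10334263 for mev-1, V:6517262-6517462 for mdh-1 and III:8741503-8741703 for pdhk-2.
sdha-1: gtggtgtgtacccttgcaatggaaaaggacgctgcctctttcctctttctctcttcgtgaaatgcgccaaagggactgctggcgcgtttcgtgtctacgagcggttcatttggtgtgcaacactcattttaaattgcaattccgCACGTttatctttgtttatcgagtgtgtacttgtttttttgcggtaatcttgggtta
mev-1: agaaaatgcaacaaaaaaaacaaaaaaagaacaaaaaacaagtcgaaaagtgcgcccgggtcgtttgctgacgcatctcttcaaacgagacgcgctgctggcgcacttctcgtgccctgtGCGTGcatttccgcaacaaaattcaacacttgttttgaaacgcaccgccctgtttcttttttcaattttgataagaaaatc
mdh-1: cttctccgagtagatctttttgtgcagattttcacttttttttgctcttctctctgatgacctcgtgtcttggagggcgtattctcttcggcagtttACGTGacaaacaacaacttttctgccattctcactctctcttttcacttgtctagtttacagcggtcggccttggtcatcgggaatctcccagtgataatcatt
pdhk-2: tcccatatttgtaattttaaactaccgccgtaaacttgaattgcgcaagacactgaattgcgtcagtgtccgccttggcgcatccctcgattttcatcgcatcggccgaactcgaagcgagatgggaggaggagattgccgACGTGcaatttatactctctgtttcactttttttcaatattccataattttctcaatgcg

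For aco-2 only the 81 bp of its window that lie outside the transcript of the protein-coding gene eef-1B.1 are shown, most of them within the ncRNA gene F54H12.9, III:7973387-7973467 on the strand of aco-2, again with the core in capitals.
aco-2: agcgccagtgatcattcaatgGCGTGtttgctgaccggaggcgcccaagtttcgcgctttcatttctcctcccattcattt

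Each of the 5 central windows held exactly 1 HRE core. Over all 604 peaks of egl-9 mutants, 409 windows (67.7%, Wilson 95% interval 63.9 to 71.3) held at least 1 core and 193 (32%) held exactly 1. The cores of sdha-1, mdh-1 and pdhk-2 were of the form ACGTG, which 267 of all windows (44.2%) contained. Those of mev-1 and aco-2 were GCGTG with no ACGTG beside it, as in 142 of all windows (23.5%). With the base before the core, sdha-1 had AACGTG (13.4% of all windows hold it), mdh-1 TACGTG (19.4%), pdhk-2 GACGTG (9.6%), mev-1 TGCGTG (12.7%) and aco-2 GGCGTG (7.45%), so the 5 peaks had 5 different hexamers. A match to these letters describes the sequence and was not tested as a binding site.

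**Figure D1:**
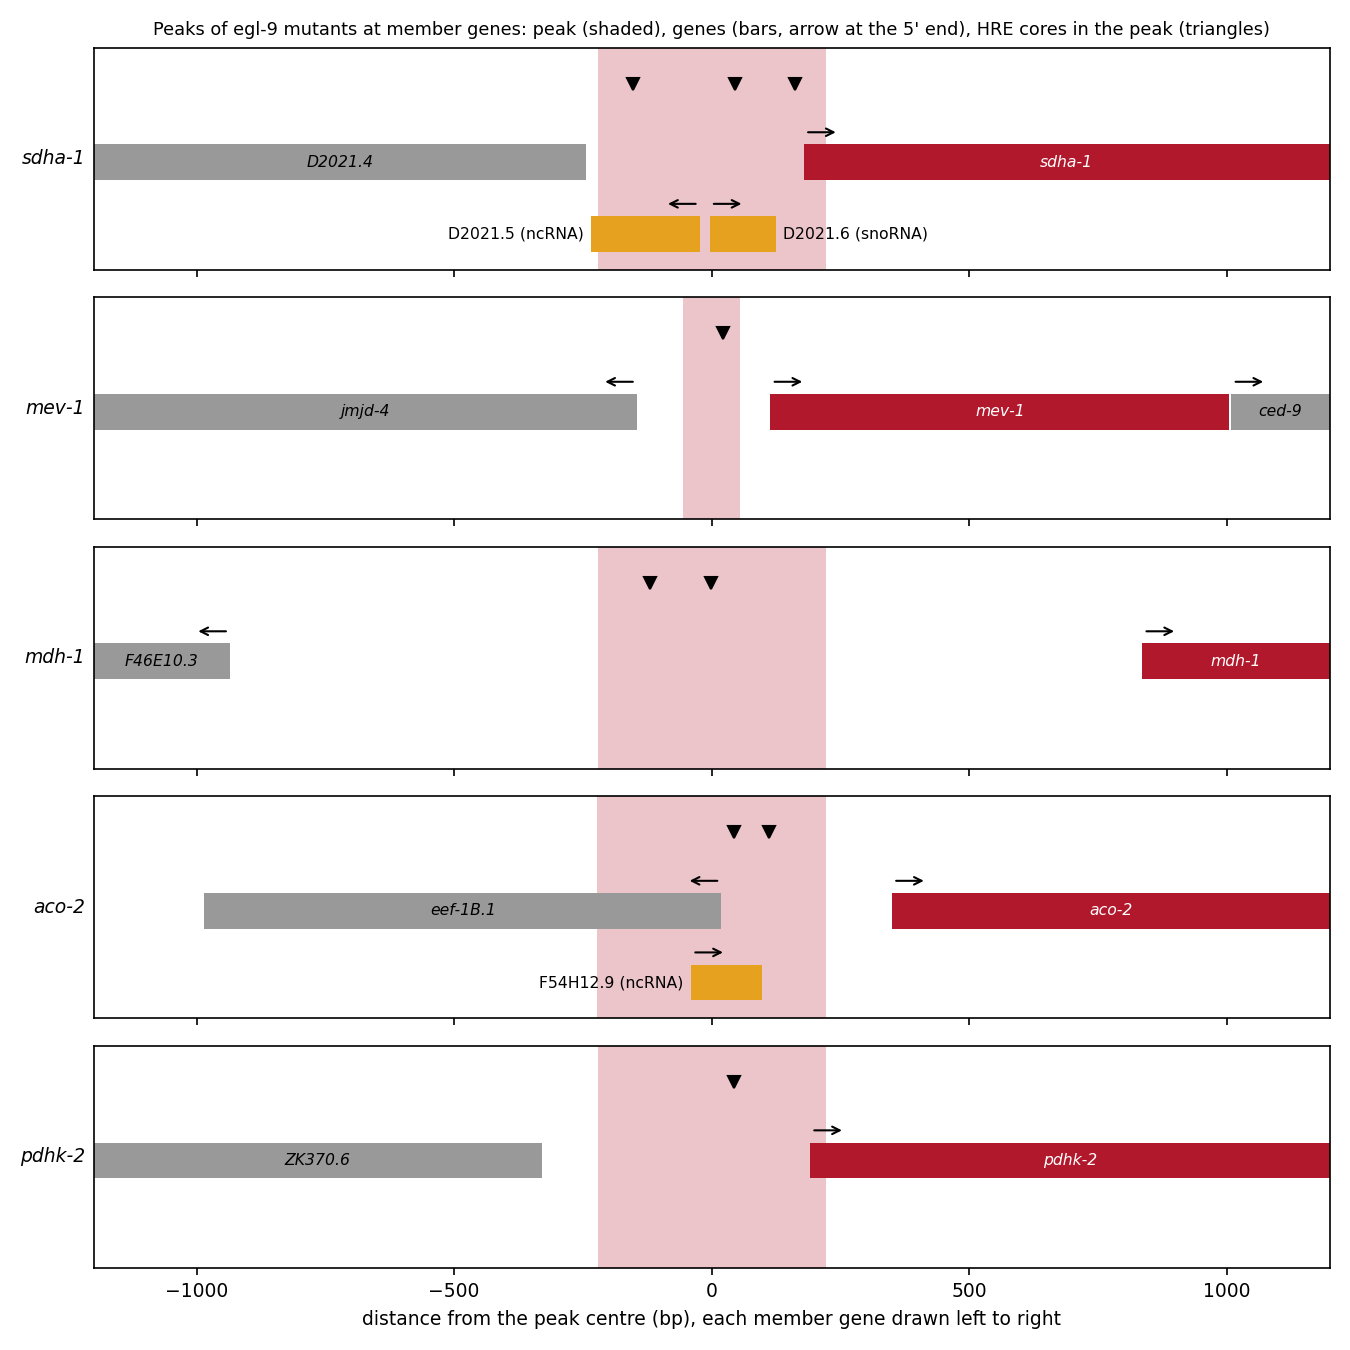
Maps of the 5 peaks of egl-9 mutants at sdha-1, mev-1, mdh-1, aco-2 and pdhk-2, with distance from the peak centre in bp on the horizontal axis and each named gene drawn left to right. Shading is the peak, red bars the named genes, grey bars other protein-coding genes, orange bars RNA genes, arrows mark 5′ ends and triangles the HRE cores, of which the whole peaks held 3, 1, 2, 2 and 1 from top to bottom.

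Succinate dehydrogenase had a peak at 2 of its 4 subunit genes, one for a catalytic and one for a membrane subunit. The gene sdha-1 (WBGene00015391, X:8542757-8546021, minus strand) encodes the flavoprotein subunit, which binds and oxidises succinate. Its peak at X:8545978-8546421 was centred 179 bp upstream of the TSS and had a signal of 220.9. Signal here is the unscaled SPP value given for each peak in the deposited list. That was 2.88 times the median of all nuclear peaks of egl-9 mutants (76.7) and 26.3% of their highest value (838). It ranked 25 of 604, so 24 peaks were higher, and it was the highest of the 5.

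The gene mev-1 (WBGene00003225, III:10334277-10335168, plus strand) encodes the large cytochrome b subunit that anchors complex II in the inner membrane, and mev-1 mutants are known for their sensitivity to oxygen. Its peak at III:10334107-10334218 was centred 114 bp upstream of the first of 2 annotated TSSs, with a signal of 158.7, 2.07 times the median of all peaks, and rank 71. The second TSS lay 427 bp from the centre. This peak was only 112 bp wide, while 557 of the 604 peaks had the same width of 444 bp. Widths under 200 bp were found for 22 of all peaks (3.64%), 16 of them with no other peak centred within 1000 bp. The summit of the mev-1 peak lay 11 bp from its centre.

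The remaining subunit genes had no peak in either list. For sdhb-1 (WBGene00006433), which encodes the iron-sulfur subunit, the nearest peak of egl-9 mutants was centred 68495 bp away. For sdhd-1 (WBGene00009353), which encodes the small membrane anchor, it was centred 6828 bp away on the downstream side, with a signal of 55.0 and rank 592 of 604. A peak so far off and so low was closer than any at sdhb-1, and it falls within the 10000 bp at which 6 of the 10 genes and 10.9% of all genes had a peak. A homologue of the flavoprotein gene, sdha-2, was not among the 10 genes and had no peak in either list.

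**Figure D2:**
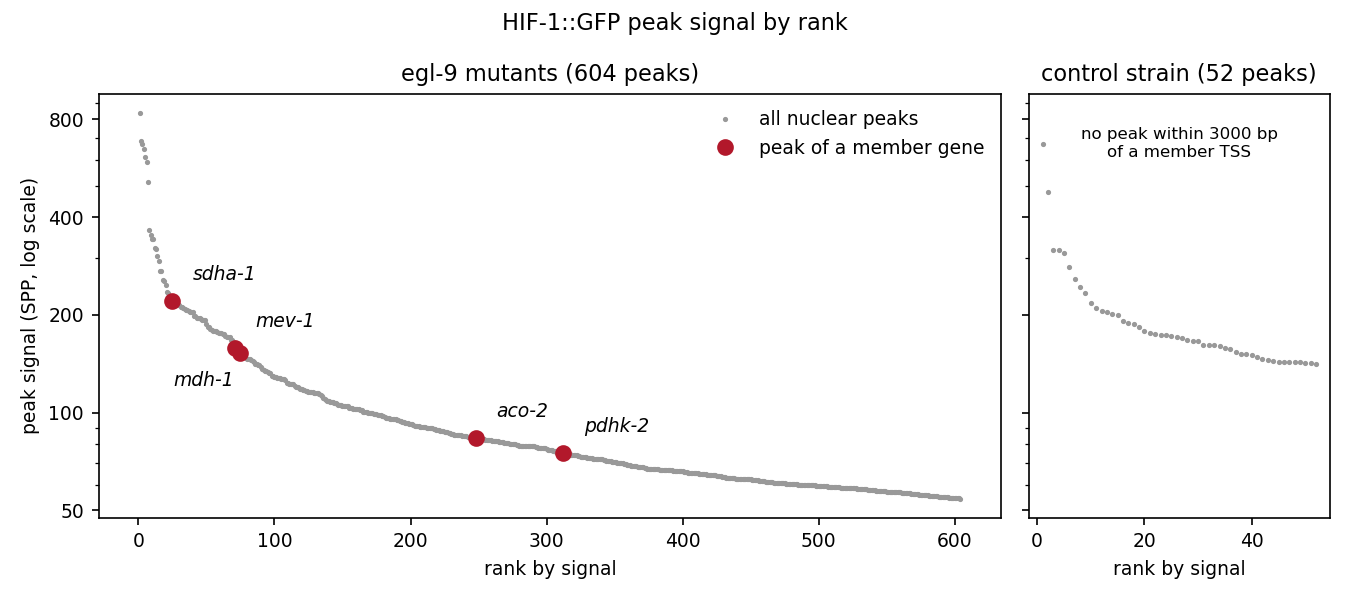
Peak signal (SPP, log scale) against rank for the 604 nuclear peaks of egl-9 mutants (left) and the 52 of the control strain (right), which were not scaled to each other. Red points are the peaks near the named genes, at signals of 220.9, 158.7, 152.7, 83.6 and 75.1, and the control list had no peak near any of the 10 genes.

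Of the malate dehydrogenases, which convert malate and oxaloacetate, mdh-1 had a peak and mdh-2 had none. The gene mdh-1 (WBGene00018491, V:6515283-6516526, minus strand) encodes the cytosolic form. Its peak at V:6517140-6517583 was centred 836 bp upstream of the TSS, the largest distance of the 5, and had a signal of 152.7 (1.99 times the median of all peaks) and rank 75. The signals of mev-1 and mdh-1 were thus 4 places apart in the list. For mdh-2 (WBGene00003162), which encodes the mitochondrial form that works in the TCA cycle, the nearest peak of egl-9 mutants was 160376 bp away, the farthest of the 10 genes.

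Among the other enzymes of the cycle, aco-2 (WBGene00000041, III:7973717-7977355, plus strand, 4 annotated TSSs), the gene for the mitochondrial aconitase that isomerises citrate, had a peak at III:7973145-7973588. It was centred 350 bp upstream of the nearest aco-2 TSS, with a signal of 83.6, 1.09 times the median of all peaks, and rank 248. The genes cts-1 (WBGene00000833), for the synthase that makes citrate, and fum-1 (WBGene00001503), for the fumarase that hydrates fumarate, had their nearest peaks of egl-9 mutants 117528 bp and 89000 bp away. The peak nearest to cts-1 was the one at mev-1, on the same chromosome.

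The kinase gene pdhk-2 (WBGene00022719, III:8737686-8741412, minus strand) had the lowest of the 5 signals. Its peak at III:8741381-8741824 was centred 191 bp upstream of the TSS and had a signal of 75.1, 0.979 times the median of all peaks, with rank 312 of 604 and 311 peaks above it.

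The 5 signals ran from 75.1 to 220.9 with a median of 152.7, against a median of 76.7 and a range of 54.4 to 838 over all nuclear peaks of egl-9 mutants. The peaks at sdha-1, mev-1 and mdh-1 were at or above the lowest signal of the control list (141.1), as were 86 of all peaks (14.2%), whereas those at aco-2 and pdhk-2 were below it. The lists were not scaled to each other, so whether a site with the signal seen at aco-2 or pdhk-2 could have entered the control list is not known. The peaks next to that of sdha-1 by rank were at gst-19, a glutathione S-transferase gene (rank 24, signal 222.0, centred 89 bp upstream), and Y17G9B.5 (rank 26, signal 220.4, 154 bp upstream). Each of those also held 1 core and overlapped no control peak.

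**Figure D3:**
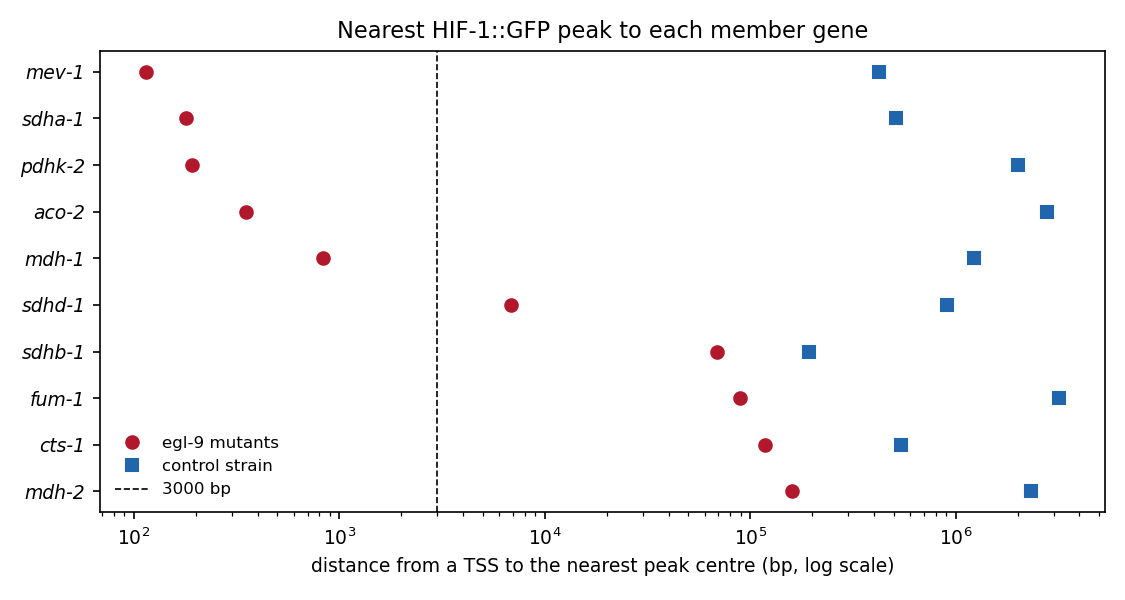
Distance (bp, log scale) from the TSSs of each of the 10 genes to the centre of the nearest peak, for egl-9 mutants (circles) and the control strain (squares), with a dashed line at 3000 bp. In egl-9 mutants 5 genes lie at 114 to 836 bp and the others at 6828 bp or more, while in the control strain the nearest peaks lie between 192283 bp (sdhb-1) and 3183301 bp (fum-1).

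The share of genes near a peak depended little on the distance for these genes. Within 1000 bp the count of the 10 genes with a peak of egl-9 mutants was again 5, against 2.27% of all genes. Within 500 bp it was 4, against 1.62% of all genes, because the mdh-1 peak lay farther out. The median distance to the nearest peak of egl-9 mutants was 3832 bp over the 10 genes and 74948 bp over all protein-coding genes. The value for the 10 genes falls in a gap between mdh-1 (836 bp) and sdhd-1 (6828 bp). It does not describe sdhb-1, fum-1, cts-1 and mdh-2, whose nearest peaks were 68495 to 160376 bp away.

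The peaks differed in how they could be assigned to a gene. The mev-1 peak lay in the 258 bp between the divergent TSSs of mev-1 and jmjd-4, a gene for a JmjC-domain protein, and its centre was 145 bp from the jmjd-4 TSS and 114 bp from that of mev-1. Downstream, ced-9, the worm BCL2 homologue that blocks cell death, starts 3 bp after the end of mev-1, and the centre of the peak was 1009 bp from its TSS. In all 4 protein-coding genes had a TSS within 3000 bp of this peak, where the median over all peaks was 2. The mdh-1 peak also lay between divergent genes, 836 bp from mdh-1 and 935 bp from F46E10.3 in a gap of 1770 bp. In all 3 protein-coding genes had a TSS within 3000 bp of it, among them dpy-11, downstream of mdh-1 on the same strand and 2122 bp from the centre. Of all peaks, 186 (30.8%) were centred between divergent genes.

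The peaks at sdha-1 and pdhk-2 were centred between genes in tandem, as were 190 of all peaks (31.5%). The gap was 423 bp between D2021.4 and sdha-1 and 520 bp between ZK370.6 and pdhk-2, and in both cases the named gene was the one whose 5′ end faced the peak. The aco-2 peak was centred inside a gene, as were 189 of all peaks (31.3%). Its centre fell in the 5′ end of eef-1B.1, a translation elongation factor gene on the opposite strand, 19 bp past that TSS, so eef-1B.1 and not aco-2 was the nearest gene. For the other 4 peaks the named gene was the nearest protein-coding gene. A peak between or within genes cannot be assigned to 1 of them from binding data alone.

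An RNA gene lay under the sdha-1 peak. Its centre was inside the snoRNA gene D2021.6 (X:8546076-8546204, minus strand), 4 bp from its 5′ end, and the ncRNA gene D2021.5 (X:8546223-8546434, plus strand) started 23 bp away on the other side. It was the only 1 of the 5 with a snoRNA, snRNA or tRNA gene at most 500 bp from its centre, against 99 of all 604 (16.4%). The only core in the central window, X:8546152-8546156, lay within D2021.6, and whether the signal there belongs to the snoRNA or to sdha-1 cannot be told apart. The aco-2 peak overlapped an ncRNA gene, F54H12.9 (III:7973327-7973465, plus strand), which held the core of its central window (III:7973408-7973412). No tRNA, snoRNA or snRNA gene lay within 500 bp of the centres at mev-1, mdh-1, aco-2 or pdhk-2.

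The cores in the whole peaks are shown with 12 bp on each side, 5′ to 3′ on the strand of the core, to compare the central ones with those farther out. They numbered 9 over the 5 peaks. In each name the distance is that from the TSS, upstream.
sdha-1 at 17 bp: gaaaatcgataaACGTGatatacatgcca
sdha-1 at 133 bp: aaacaaagataaACGTGcggaattgcaat
sdha-1 at 331 bp: ttcctttttcaaACGTGgacatttctgac
mev-1 at 92 bp: ctcgtgccctgtGCGTGcatttccgcaac
mdh-1 at 837 bp: cttcggcagtttACGTGacaaacaacaac
mdh-1 at 956 bp: cctcgagatttgACGTGaaagttttcatt
aco-2 at 307 bp: gatcattcaatgGCGTGtttgctgaccgg
aco-2 at 239 bp: tcagcagagacgGCGTGcatgccgaaaat
pdhk-2 at 148 bp: aggagattgccgACGTGcaatttatactc

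The 3 cores of the sdha-1 peak all had the hexamer AACGTG, and both cores of the aco-2 peak had GGCGTG, whereas the 2 of the mdh-1 peak had TACGTG and GACGTG. Of the 3 in the sdha-1 peak, the one 331 bp upstream lay in D2021.5, the one 133 bp upstream in D2021.6 and the one 17 bp upstream in no annotated gene. The core of mdh-1 lay 1 bp from the peak centre, that of mev-1 22 bp, those of aco-2 and pdhk-2 43 bp and that of sdha-1 46 bp. The median was 43 bp, against 32 bp for the nearest core over all peaks of egl-9 mutants with one. The GC content of the 5 windows was 42.8% to 46.3%, and its median of 44.3% was close to that of all peaks (45.3%).

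Cores were not confined to the genes with a peak. In the 300 bp from 250 bp before to 50 bp after the outermost TSS, searched on both strands, 10 of the 10 genes held a core, where 8187 of all 19973 promoters (41.0%) did. From 1000 bp before to 50 bp after, 10 of 10 and 77.6% of all promoters did. The 5 genes without a peak are represented by the core nearest to the TSS, with the distance upstream.
sdhb-1 at 89 bp: agacaataatggACGTGactatttatttt
sdhd-1 at 186 bp: aataacgattacGCGTGttgtttagcgaa
mdh-2 at 192 bp: cgcctgagaggaGCGTGcgcctttaacct
cts-1 at 62 bp: ttttttttaattGCGTGacccgccacatt
fum-1 at 62 bp: aaacccttggaaACGTGagaaactagttc

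The 5 genes with a peak had a mean of 1.2 cores per 300-bp promoter and the 5 without a peak had 2.2, against 0.627 over all genes. In the longer stretch the means were 3 and 3.6, against 1.89 over all genes. The most in the 300 bp were at fum-1 (4) and mdh-2 (3), both without a peak. At fum-1 2 of the 4 counts were the strands of 1 palindromic CACGTG, 182 and 183 bp upstream, so 3 separate sites were present. At mdh-1 the peak enclosed 2 of the 5 cores within 1000 bp of the TSS, and the core nearest to the TSS, 112 bp upstream, lay outside it. At pdhk-2 the peak enclosed 1 core, 148 bp upstream, and the others lay 732 to 852 bp upstream. Those at 732 and 733 bp were likewise the strands of 1 palindromic CACGTG. A core close to the TSS was thus present both in the genes with a peak and in those without one.

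**Figure D4:**
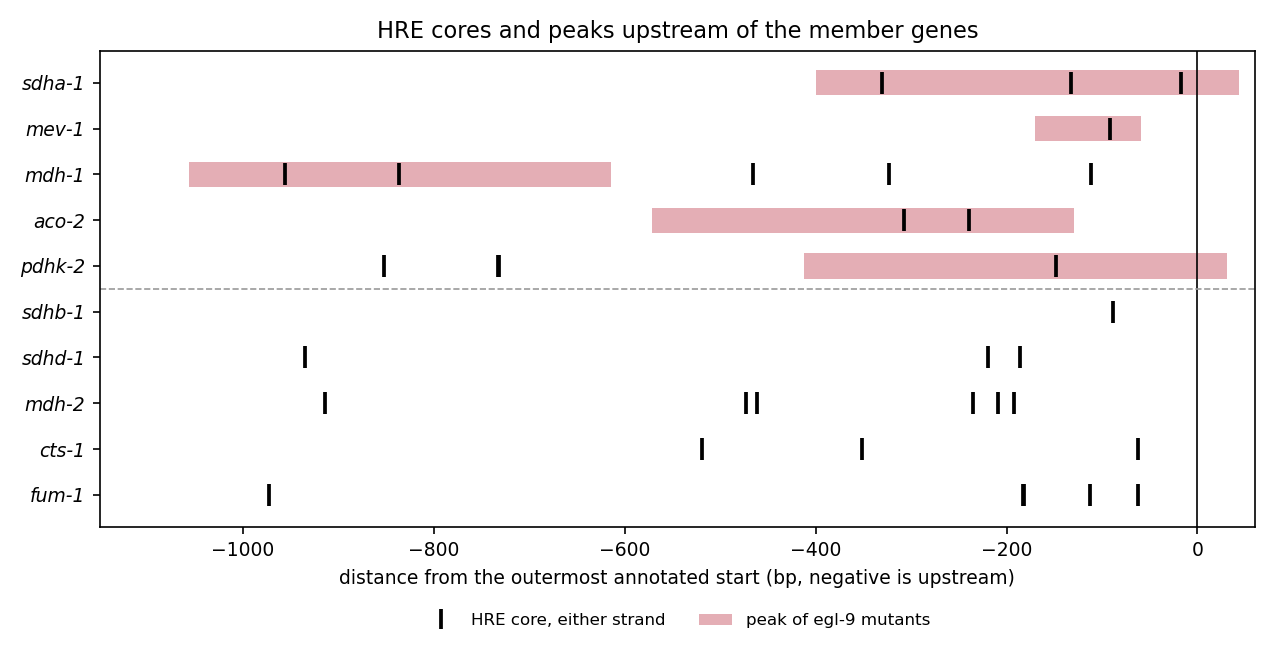
HRE cores (black ticks, either strand) and peaks of egl-9 mutants (red bars) upstream of the 10 genes, with distance from the outermost annotated TSS in bp and negative values upstream. The 5 genes above the dashed line have a peak, with the nearest core 1 to 46 bp from the peak centre. The 5 genes below the line have 1 to 6 cores and no peak.

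Of 23 other genes for the TCA cycle, the pyruvate dehydrogenase complex and the mitochondrial pyruvate carrier, 1 (4.35%) had a peak of egl-9 mutants within 3000 bp, about the 4.36% found over all genes, and 0 had a control peak. It was mpc-2, which encodes a subunit of the carrier that brings pyruvate into mitochondria, and its peak was centred 2752 bp upstream with a signal of 55.7 and rank 579 of 604. The median distance to the nearest peak of egl-9 mutants was 102034 bp over the 23 genes. Of 7 names for the malate-aspartate shuttle and malic enzyme, 5 were found in the annotation, and 0 of these had a peak in either list, with a median distance of 20872 bp. No gene for the isocitrate or oxoglutarate dehydrogenases, succinyl-CoA ligase or the pyruvate dehydrogenase complex itself had a peak in either list.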

How the data were processed

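HIF-1::GFP ChIP-seq of whole L4 larvae was analysed from 2 deposited peak lists, 1 for egl-9 mutants and 1 for the control strain. The submitters' processing notes name BWA and the build WBcel235, and the study's methods state that an SPP pipeline called peaks and that those reproducible between replicates were kept. Signal is the SPP value in the lists that the authors deposited, unscaled between them, and its lowest values differ from those in the study's methods, so whether it is the quantity described there is not known. The summit offset that the authors deposited was used in an alternative only. No use was made of the column found where q values usually stand, as its content is not described. Read depth is stated in the methods only as a range for the 6 libraries together, so that of each library is unknown.

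Peak starts were read as 0-based. Mitochondrial peaks, 19 for egl-9 mutants and 18 for the control strain, were left out. Genes and TSSs came from Ensembl release 115, and sequences from the NCBI FASTA of WBcel235. Because many worm transcripts are trans-spliced, true starts can lie upstream of annotated ones. Distances are from peak centres to the nearest TSS of a gene, and cores were counted on both strands, so a palindrome counts on each. Wilson 95% intervals cover the sampling of peaks only. Scripts (Python 3.11.15, scipy 1.17.1, matplotlib 3.10.9) were tested on simulated data.

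The 10 genes, the lists of 23 and 7 other pathway names and the settings were chosen with earlier results of these data known, so no test was run. Counts under the main settings stand beside that over all genes or peaks where it was obtained. Most counts under alternative settings other than distance have no such value. Named were the 10 genes, pathway genes with a peak, for each peak the nearest protein-coding gene, others with a TSS within 1000 bp and RNA genes there, and the genes at the ranks beside that of sdha-1. The genes ced-9, dpy-11, sdha-2, D2021.4, ZK370.6, idh-1 and got-1.2 were named outside this rule after their values were seen. Alternatives varied the distance, the peak position used, the TSSs, the signal threshold, RNA genes, the motif, merging and mitochondrial peaks.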

Additional observations from a re-analysis of the deposited data

How the results depend on the processing

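The count of 5 genes with a peak of egl-9 mutants was also obtained within 1000 bp or 5000 bp, with peak edges or summits, and with the outermost TSS only. It was 4 within 500 bp (without mdh-1), by nearest protein-coding gene (without aco-2), in the strongest 302 peaks (without pdhk-2) and without peaks near tRNA, snoRNA or snRNA genes (without sdha-1), and 3 among peaks at or above the lowest control signal. Of all 604 peaks, 99 were near those RNA genes and 86 were at or above the lowest control signal. Apart from the distances, no share over all genes was obtained at these settings. That share can also fall when peaks are dropped, so how those counts compare with all genes is not known. The control count was 0 within 1000 bp and within 5000 bp, against 0.14% and 0.571% of all genes. Over all genes the share with a peak of egl-9 mutants was 1.62% within 500 bp, 2.27% within 1000 bp and 6.41% within 5000 bp. Cores were in all 5 peaks at the summit or in the whole peak, and in 3 with ACGTG only. A TSS of another gene was nearer to 1 peak, and to 2 with genes of all biotypes. The median signal was 155.7 in the strongest 302 peaks and 118 without peaks near those RNA genes. Of the other pathway genes 0 had a peak within 1000 bp and 3 within 5000 bp, adding idh-1 (3466 bp) and got-1.2 (3871 bp). Ranks of the sdha-1, mev-1, mdh-1, aco-2 and pdhk-2 peaks were 23, 69, 73, 237 and 298 after merging into 574 regions, and 42, 89, 93, 267 and 331 with mitochondrial peaks. The cause of these differences beyond the fewer or more peaks and genes counted was not tested. No paired analysis was possible because each genotype had 1 peak list, and for the same reason no replicate could be left out.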

Other observations

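A further run of letters was noticed in the printed windows and then counted, so it is a description chosen after the sequences were seen, with no test. The sequence GGCGC, searched on both strands and able to share letters with a GCGTG core, was in 4 of the 5 central windows (100 bp to each side of the peak centre), in 189 of all 604 windows of egl-9 mutants (31.3%) and in 13 of the 52 control windows (25%). It was in 9.41% of stretches of the same length just upstream of protein-coding TSSs. The windows of mev-1, aco-2, sdha-1 and pdhk-2 held 2, 4, 2 and 1 copies, the nearest of them 1, 4, 18 and 22 bp from the peak centre. Each window held only 1 HRE core, at 22, 43, 46 and 43 bp, so the nearest of several copies is mostly set against a single core. How often GGCGC lay closer than the core over all windows is not given here. The mdh-1 window, whose HRE core was 1 bp from the centre, held none. In the 300-bp promoters GGCGC was in 3 of the 5 genes without a peak and in 14.1% of all promoters. Which protein, if any, reads these letters was not tested.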
